A study of Mus musculus with 8 samples.

Results

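The arrays of 2 mutant fibroblast genotypes, Gadd45a-/- and Ing1-/-, were compared with each other and without the wild type, to ask what told these knockouts apart. They were chosen by their labels and make up 4 of the 8 arrays of the study, 2 for each genotype. Mouse embryonic fibroblasts (MEFs) are primary connective tissue cells grown out of embryos. Per the labels, every culture came from male C57BL/6 embryos at E15.5 (days of embryonic development) and was harvested when confluent at passage 3, with no treatment. The Gadd45a-/- cells carried the Gadd45a knockout alone, and the Ing1-/- cells the Ing1 knockout alone. The wild type (WT) and the double knockout (DKO), also with 2 arrays each, serve below only as levels on the same scale. The design text describes duplicates for each MEF line and gives no number of lines, so genotype and cell line cannot be told apart, and the p-values measure only the spread between arrays, which may be technical.

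RNA was measured on 1-colour Illumina bead arrays with 45281 probes. A probe counted as above background on an array when its detection p, which gives the fraction of negative control probes that reached its brightness, was under 0.01. Between 14470 and 14778 probes were above background on each of the 4 arrays. The 14447 probes (31.9%) that were above background on both arrays of either knockout were kept, and they covered 8482 named genes. All levels are log2 normalized intensities, and a difference is the mean level of the arrays labelled Gadd45a-/- minus that of the arrays labelled Ing1-/-, with its standard error. A level shows no ranking between genes, because probes differ in how brightly they bind. Pearson's r across kept probes was 0.9914 between the Gadd45a-/- arrays and 0.9918 between the Ing1-/- arrays, against 0.9863 to 0.989 between arrays of different knockouts. The median SD between replicates was 0.114 and 0.109 in these genotypes, and with 2 arrays a genotype the precision of each value is limited. Many fibroblast markers were bright on all 4 arrays, with Col1a1, the main fibrillar collagen chain of connective tissue, between 14.15 and 14.34. Others were dim: Postn was below background on both Ing1-/- arrays (5.27 and 5.82), and no Lum probe was above it on all 4 arrays.

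Gadd45a is a small nuclear protein that is induced by DNA damage and other stress, partly through p53. It binds partners in stress kinase signalling, the cell cycle and DNA repair, and has been tied to active DNA demethylation. Ing1 belongs to the inhibitor of growth family, whose members carry a PHD finger that reads methylated histone H3 and recruits histone deacetylase or acetyltransferase complexes to chromatin. In fibroblasts both genes are best known for restraining growth after damage.

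The proximal promoters of 4 genes that separated the knockouts are shown because they stand for the groups described below, namely a targeted gene, a cartilage gene and a pair of peptide genes that moved in opposite directions. Each runs from 250 bases before to 50 bases after the RefSeq start site, on the gene's own strand, in build GRCm38.p6. Capitals mark the motifs searched on both strands: the TATA box TATAAA, the CCAAT box CCAAT, the GC box GGGCGG, the core of the cyclic AMP response element TGACG, and the octamer ATTTGCAT.
Gadd45a, chr6:67037358-67037657, minus strand: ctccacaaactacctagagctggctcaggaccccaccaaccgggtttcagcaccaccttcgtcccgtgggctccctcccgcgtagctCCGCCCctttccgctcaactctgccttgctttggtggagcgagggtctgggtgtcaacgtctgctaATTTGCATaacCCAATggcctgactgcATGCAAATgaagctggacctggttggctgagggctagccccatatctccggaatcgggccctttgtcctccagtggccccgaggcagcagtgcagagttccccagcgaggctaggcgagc
Acan, chr7:79052976-79053275, plus strand: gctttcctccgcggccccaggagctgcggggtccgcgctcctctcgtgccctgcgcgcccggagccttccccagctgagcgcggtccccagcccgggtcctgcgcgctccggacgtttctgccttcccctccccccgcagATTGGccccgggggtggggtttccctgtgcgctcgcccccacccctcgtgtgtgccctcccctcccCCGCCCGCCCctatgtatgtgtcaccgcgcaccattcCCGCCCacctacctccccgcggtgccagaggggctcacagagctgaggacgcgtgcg
Cck, chr9:121495645-121495944, minus strand: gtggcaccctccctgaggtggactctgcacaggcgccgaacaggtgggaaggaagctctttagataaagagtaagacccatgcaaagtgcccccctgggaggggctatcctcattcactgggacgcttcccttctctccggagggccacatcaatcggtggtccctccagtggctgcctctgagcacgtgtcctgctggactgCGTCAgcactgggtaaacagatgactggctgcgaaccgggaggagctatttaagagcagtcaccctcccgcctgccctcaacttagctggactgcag
Npy, chr6:49822460-49822759, plus strand: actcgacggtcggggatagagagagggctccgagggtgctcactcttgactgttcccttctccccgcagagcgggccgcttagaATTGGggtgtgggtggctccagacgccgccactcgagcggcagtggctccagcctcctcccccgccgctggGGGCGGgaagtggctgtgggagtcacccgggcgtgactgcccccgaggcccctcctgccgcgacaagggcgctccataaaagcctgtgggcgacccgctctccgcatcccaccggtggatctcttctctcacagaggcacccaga

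In the Gadd45a window the octamer stood at -97 and, on the other strand, at -70 from the start site, around a CCAAT box at -86. The octamer was found in 1.74% of the 32851 promoters of the table. In Acan 3 GC boxes, the first 2 of them overlapping, lay between -44 and -7, and GC boxes were found in 35.7% of all promoters. Cck had the core of the cyclic AMP response element at -47, which 20.8% of promoters held, and Npy had a CCAAT box at -166 and a GC box at -95. CCAAT boxes were found in 37.4% and the TATA box in 13.6% of promoters. These matches describe the letters in the windows. The table held a promoter for 40 of the 60 named genes that differed between the knockouts.

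The targeted genes were read first, as a check of the labels. Each of the 2 Gadd45a probes passed background on the 4 arrays, with the higher signal where the gene was labelled as knocked out. One probe read 11.80 and 11.83 on the arrays labelled Gadd45a-/- against 10.12 and 10.15 on those labelled Ing1-/-, a difference of 1.68 ± 0.13 (limma adjusted p = 0.0029). The other read 10.83 and 11.00 against 9.09 and 9.24, a difference of 1.74 ± 0.14 (limma adjusted p = 0.00356). The groups lay far apart for both probes, with WT between them at 10.93 and 10.71 on the first probe and DKO at 11.80 and 11.69. The Gadd45a signal therefore went against the label, and the genotypes are called by their labels throughout. Whether the probes lie inside the deleted part is not stated in the labels or files, and probes outside it would check nothing. The Ing1 probe was not above background on any of the 8 arrays, so it checks no label either. Of the relatives of Gadd45a, Gadd45b (9.18 and 8.98 against 9.05 and 8.81) and Gadd45g (13.08 and 12.94 against 13.32 and 13.02) had groups that overlapped.

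Across the 14447 kept probes, 75 differed between the knockouts at a limma adjusted p under 0.05 (0.519%). In the arrays labelled Gadd45a-/- 53 were higher (0.367% of kept probes) and 22 lower (0.152%). The calls comprised 60 named genes, 43 higher and 17 lower, and 9 probes with no gene name. Groups that do not overlap were common, at 37.1% of kept probes (17.9% higher and 19.2% lower), so separation of 2 arrays from 2 says little alone. An unadjusted p under 0.05 was reached by 1278 probes. Of the called probes 26 were below background on both arrays of a genotype and are given as a bound (at least N-fold). Called probes of Mak16, Mid1, Unc5c, Cds1, Isl1 and Gsdme were below background on 1 array of a genotype. Their differences are given without a bound and rest partly on signal below background. Just inside the threshold lay Lama5 (at least 1.85-fold higher, adjusted p = 0.0499) and just outside it Aqp5 (1.29, adjusted p = 0.0521). With each genotype given a mean over all 8 arrays, 106 probes were called (0.734%), 81 higher and 25 lower, of which 67 were shared. That is 89.3% of the calls from 4 arrays and 63.2% of those from 8. The count fell to 20 without Gadd45a-/- replicate 1, 31 without Gadd45a-/- replicate 2, 48 without Ing1-/- replicate 1 and 51 without Ing1-/- replicate 2, and 20 probes kept their call in all of these fits. Named among these were Mak16, Col2a1, Fut10, Il1rn, Cck, Ppbp, Gadd45a, Smoc1, Tmem267, Slc25a37, Entpd4 and Erdr1.

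**Figure D1:**
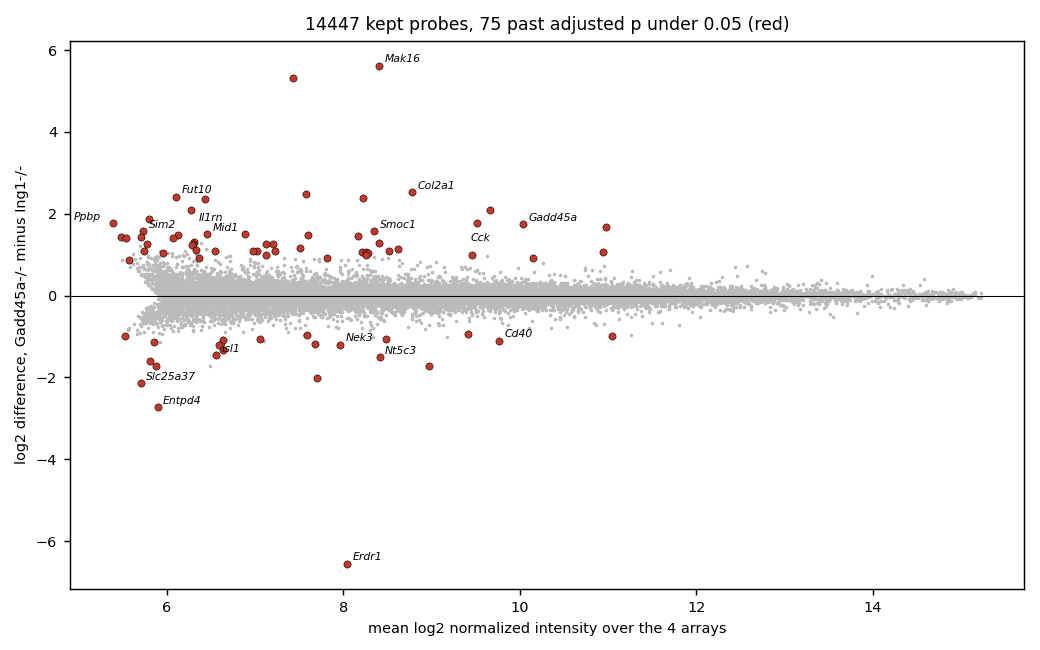
Fitted log2 difference (arrays labelled Gadd45a-/- minus Ing1-/-) against the mean log2 intensity over the 4 arrays, 1 point for each of the 14447 kept probes, with the 75 called probes in red and some of the largest named. Mak16 lies at 5.62 and Erdr1 at -6.55, an unnamed probe lies at 5.32, and the other called probes lie between -2.73 and 2.52.

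Of 7 measured cartilage and bone genes, Col2a1, Acan and Sp7 rose in the arrays labelled Gadd45a-/- relative to the arrays labelled Ing1-/-, and the other 4 did not pass. Chondrocytes build their matrix from type II collagen and aggrecan under the control of Sox9, and Sp7 (osterix) is the transcription factor that commits cells to the bone lineage. Col2a1, the type II collagen chain, read 10.02 and 10.07 in the arrays labelled Gadd45a-/- against 7.45 and 7.60 in the arrays labelled Ing1-/-, a difference of 2.52 ± 0.14 (limma adjusted p = 0.00057). All 3 of its probes were called, the others by 2.48 (adjusted p = 0.00421) and 2.38 (adjusted p = 0.000709), so the transcript was separated by every probe on the array. WT read 6.26 and 6.21 on the first probe, below either knockout, and DKO 9.10 and 9.35, between the knockouts. Sp7 read 7.03 and 6.72 against 5.36 and 5.41 and was not above background on the Ing1-/- arrays, at least 1.98-fold higher (adjusted p = 0.0116). Acan, the aggrecan core protein, read 6.42 and 6.07 against 4.97 and 4.72, also below background there, at least 1.28-fold higher (adjusted p = 0.0219). Sp7 and Acan each had 2 probes on the array, of which only 1 was kept. Acan was above background on neither DKO array (5.48 and 5.18), while Sp7 was on both (6.84 and 7.60). The call of Sp7 was lost without Gadd45a-/- replicate 1 (adjusted p = 0.0647), and that of Acan without the same array (0.0987) or without Ing1-/- replicate 2 (0.0569).

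Of 27 listed genes 25 were on the array and 7 were measured. The 3 calls among these 7 stand beside 0.566% called of all 8482 genes at their brightest probe. Sp7, Acan and Sox5 were kept only through the arrays labelled Gadd45a-/-, where they read higher. The share called, the signs and the median of the list therefore cannot show enrichment. By sign alone 4 of the 7 were higher and 3 lower. The median difference of the list was 0.62, or 0.36 with the 3 genes below background in the Ing1-/- arrays set at their bound, beside 0 over all kept probes. Sox9 itself read 10.75 and 10.85 against 10.75 and 10.94 (adjusted p = 0.982), with overlapping groups. Col9a3, a chain of cartilage type IX collagen, read 8.19 and 8.38 against 8.18 and 8.55. Pth1r, the receptor for parathyroid hormone and its related peptide, lay furthest the other way, at 7.01 and 5.69 against 6.83 and 7.07 (-0.60 ± 0.37, adjusted p = 0.755), with the arrays labelled Gadd45a-/- far apart. Other cartilage genes, namely Col9a1, Comp, Matn1, Hapln1 and Col10a1, were not above background on any of the 4 arrays. Among called genes outside the lists, chosen after their values were seen, were some with known parts in the skeleton. Scx, the tendon transcription factor scleraxis, read 7.23 and 6.95 against 6.01 and 5.99 (1.09 ± 0.15, adjusted p = 0.0338). Mustn1, a small nuclear protein of the musculoskeletal system, read 7.95 and 7.72 against 6.48 and 6.67 (1.26 ± 0.15, adjusted p = 0.0205), and its second kept probe differed by 1.02 (adjusted p = 0.105). Scx lost its call whichever array was left out, with adjusted p from 0.083 to 0.154, and Mustn1 kept it only without Ing1-/- replicate 2. In a bulk culture, fewer cells of a type and less RNA per cell cannot be told apart.

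**Figure D2:**
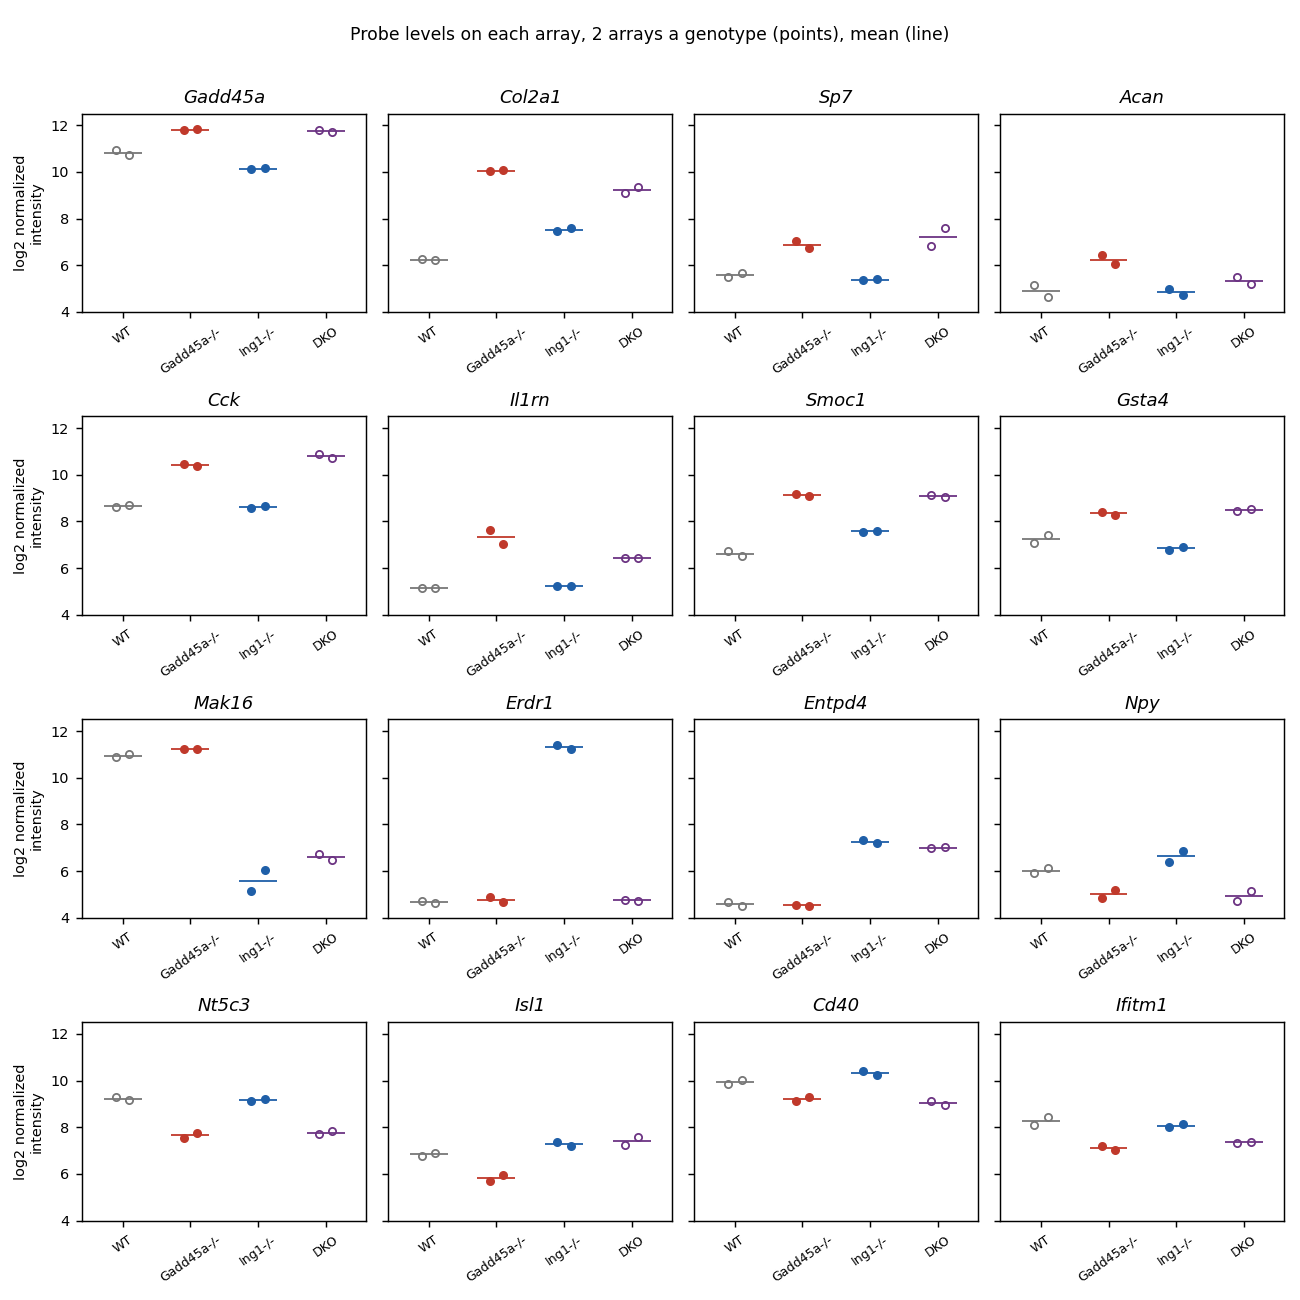
Log2 normalized intensity of 16 called genes on all 8 arrays, 1 point an array and a line at the mean of each genotype; filled points are the arrays compared. Col2a1 reads 10.02 and 10.07 in the arrays labelled Gadd45a-/- against 7.45 and 7.60 in those labelled Ing1-/-, and Erdr1 is high (11.39 and 11.24) on the Ing1-/- arrays alone.

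Among 18 measured secreted chemokines and cytokines, Il1rn and Il11 rose in the arrays labelled Gadd45a-/- (11.1% called, against 0.566% of all genes). Il1rn, the antagonist that occupies the interleukin 1 receptor without signalling, read 7.62 and 7.04 against 5.23 and 5.23. It was not above background in the Ing1-/- arrays and was at least 2.72-fold higher (limma adjusted p = 0.00665). Of its 4 probes on the array 1 was kept, and only through the arrays labelled Gadd45a-/-. Il11, a cytokine of the interleukin 6 family, read 8.77 and 8.84 against 7.85 and 7.69 (1.04 ± 0.14, adjusted p = 0.0315). No member of the list was called lower, and its median was 0.18. Among the members that did not pass, the groups overlapped for Ccl2, a monocyte attractant (9.73 and 10.07 against 9.78 and 10.12), and lay close for Cxcl12 (11.84 and 11.89 against 11.76 and 11.56). Il11 lost its call whichever of the 4 arrays was left out, with adjusted p from 0.0606 to 0.161. Ppbp, the precursor of a neutrophil-attracting platelet chemokine, was dim at 6.34 and 6.23 against 4.52 and 4.51, at least 1.31-fold higher (adjusted p = 0.00265). Its second kept probe read 6.04 and 6.57 against 5.01 and 5.15 and missed the threshold (adjusted p = 0.058). Fst, follistatin, which binds and blocks activins, read 10.65 and 10.59 against 9.77 and 9.62 (0.93 ± 0.14, adjusted p = 0.0453). It was the called gene among 20 measured members of the BMP pathway (5%, against 0.566% of all genes), where the median difference was 0.17.

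Around Fst, the BMP response genes Id1 (10.41 and 10.23 against 9.67 and 9.62, limma adjusted p = 0.121), Id2 (8.25 and 8.57 against 7.25 and 7.84, adjusted p = 0.207) and Id4 (8.06 and 8.10 against 7.45 and 7.59, adjusted p = 0.194) did not pass. Their groups did not overlap, as for 37.1% of all kept probes. In this list the groups lay apart for 10 genes that were higher and 3 that were lower, among the latter Bmp1 (-0.53) and Bmpr1b (-0.39). The receptor Bmpr1a read 10.04 and 10.13 against 10.19 and 10.22, and Bmpr2 11.51 and 11.72 against 11.76 and 11.69. Fst lost its call without any 1 of the arrays, with adjusted p from 0.095 to 0.189. A pair of Wnt pathway ligands was called too, and both were chosen after their values were seen. Rspo2, a secreted amplifier of Wnt signals, read 6.40 and 6.46 against 4.95 and 5.01, at least 1.45-fold higher (adjusted p = 0.00614). Its adjusted p was 0.0506 without Gadd45a-/- replicate 1 and 0.11 in the fit over all 8 arrays, and the WT arrays lay apart at 4.81 and 5.85. Wnt5b, itself a ligand, read 6.53 and 6.29 against 5.34 and 4.94, at least 1.43-fold higher (adjusted p = 0.0364), and kept its call only without Ing1-/- replicate 1 among the fits that left out an array.

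The peptide genes Cck and Npy differed in opposite directions. Cck encodes cholecystokinin, a peptide hormone of gut and brain, and read 10.45 and 10.38 in the arrays labelled Gadd45a-/- against 8.59 and 8.67 in those labelled Ing1-/- (1.78 ± 0.13, limma adjusted p = 0.00265). WT stood at the Ing1-/- level (8.63 and 8.70) and DKO above the Gadd45a-/- level (10.87 and 10.74). Npy, neuropeptide Y, ran the other way, at 4.85 and 5.17 against 6.38 and 6.87, and was above background on both Ing1-/- arrays and on neither Gadd45a-/- array. It was at least 1.66-fold lower in the arrays labelled Gadd45a-/- (adjusted p = 0.0222), a call lost without either of those arrays (adjusted p = 0.118 and 0.0667). Npy1r, a receptor for this peptide that was chosen after its values were seen, was higher, at 7.58 and 7.45 against 6.44 and 6.44 (1.08 ± 0.13, adjusted p = 0.0239). Without any 1 array its adjusted p ran from 0.0727 to 0.13. Gap43, a growth cone protein, read 7.90 and 8.29 against 6.88 and 6.98 (1.16 ± 0.17, adjusted p = 0.0402). It was the called member among 9 measured neural and neural crest genes (11.1%, against 0.566% of all genes). By sign 7 of the 9 were higher and 2 lower, with a median of 0.33. Of the higher genes, Stmn2 and Sox10 were kept only through the arrays labelled Gadd45a-/-. The share called, the signs and the median therefore cannot show enrichment. No fit with an array left out kept the call of Gap43. Sox10, the defining neural crest factor, was above background on both arrays labelled Gadd45a-/- and on neither Ing1-/- array (6.56 and 5.97 against 5.77 and 5.30, adjusted p = 0.363). The summed linear signal of the neural list was 11450 and 10720 against 11990 and 11800. This sum mostly follows its brightest members, Ncam1 (12.30 and 12.16 against 12.34 and 12.07) and Crabp1 (12.18 and 12.18 against 12.40 and 12.60), and says little of the dimmer ones. The part of neural cells in the Gap43 value was not tested.

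Sim2, a bHLH-PAS factor of the midline, read 6.68 and 6.37 against 5.09 and 4.81, at least 1.55-fold higher (limma adjusted p = 0.0126). The LIM homeobox factor Lhx9, known from limb and gonad, read 6.82 and 6.99 against 5.74 and 5.61, at least 2.02-fold higher (adjusted p = 0.0174), with a second probe at 6.32 and 6.78 against 5.54 and 5.60 (adjusted p = 0.0857). Another LIM homeobox factor, Isl1, went the other way, at 5.70 and 5.95 against 7.38 and 7.20 (-1.46 ± 0.15, adjusted p = 0.0116). Only 1 of the arrays labelled Gadd45a-/- was above background for Isl1. Lhx9 was the called gene among 26 measured mesenchymal patterning factors (3.85%, against 0.566% of all genes), whose median was 0.04. Lhx9 itself was kept only through the arrays labelled Gadd45a-/-. Foxc1, a forkhead factor chosen after its values were seen, passed over 8 arrays (adjusted p = 0.0226) and not over 4 (0.0648). The broad mesenchymal factors Twist1 (9.72 and 9.75 against 9.70 and 9.56) and Prrx1 (11.75 and 11.55 against 11.40 and 11.32) did not pass, nor did any of 17 measured Hox genes, with a median of 0.01. For Sim2 and Isl1 the call was lost without Gadd45a-/- replicate 1 (adjusted p = 0.0793 and 0.0774), and for Lhx9 it was kept only without Ing1-/- replicate 1.

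Among 35 measured matrix genes 1 was called, Smoc1 (2.86%, against 0.566% of all genes). Smoc1, a calcium-binding protein of basement membranes that modulates BMP signals, read 9.18 and 9.10 against 7.54 and 7.61 (1.57 ± 0.13, limma adjusted p = 0.00401). The median of the list was -0.08. The fibrillar collagens Col1a1 (14.33 and 14.15 against 14.29 and 14.34) and Col3a1 (9.94 and 9.92 against 10.07 and 10.44, adjusted p = 0.645) did not pass. Mfap5, a microfibril protein, read 8.47 and 8.56 against 9.32 and 9.34 and missed the threshold (adjusted p = 0.0646), as did Prelp at 10.13 and 9.79 against 8.91 and 9.02 (adjusted p = 0.0617). None of 18 measured metalloproteinases and inhibitors was called. The nearest were Mmp9, gelatinase B (8.85 and 8.49 against 9.72 and 9.64, adjusted p = 0.0617), and Mmp3, stromelysin 1 (5.50 and 5.24 against 6.15 and 6.84, adjusted p = 0.123). In the fit over 8 arrays Mfap5, Prelp and Mmp9 passed (adjusted p = 0.0198, 0.0305 and 0.0243).

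Gsta4, a glutathione transferase that clears products of lipid peroxidation, read 8.42 and 8.28 against 6.79 and 6.92 (1.49 ± 0.14, limma adjusted p = 0.00626), and lost its call without Gadd45a-/- replicate 1 (adjusted p = 0.058). It was the called gene among 20 measured oxidative stress genes (5%, against 0.566% of all genes), whose median was 0.12. Nqo1, a quinone reductase and classical target of Nrf2, read 8.86 and 9.26 against 8.17 and 8.23 (adjusted p = 0.104), and Hmox1, heme oxygenase 1, 9.37 and 9.78 against 9.37 and 9.63. Slco4a1, an organic anion transporter, read 6.80 and 6.67 against 5.17 and 4.57, at least 1.80-fold higher (adjusted p = 0.0138), a call lost without either Gadd45a-/- array (0.0895 and 0.0712). Lower in the arrays labelled Gadd45a-/- was Pde2a, a phosphodiesterase of cyclic nucleotides, at 5.35 and 5.24 against 6.47 and 6.38, at least 1.44-fold (adjusted p = 0.0205), and without any 1 array its adjusted p ran from 0.0501 to 0.122. Tmem267, a transmembrane protein, was at least 1.79-fold lower, at 5.09 and 4.92 against 6.79 and 6.68 (adjusted p = 0.00356), and DKO had the highest levels, at 7.01 and 7.36.

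Cd40, a costimulatory receptor of the tumour necrosis factor receptor family that fibroblasts also carry, read 9.14 and 9.29 against 10.42 and 10.22 on its most changed probe (-1.10 ± 0.15, limma adjusted p = 0.0304). A second probe was called at -1.05 (adjusted p = 0.0476), and another was not, at 7.34 and 6.79 against 7.53 and 7.93 (adjusted p = 0.377). DKO read 9.11 and 8.95 on the first probe, at the Gadd45a-/- level, and WT 9.84 and 10.03. The first probe kept its call only without Ing1-/- replicate 2 among the fits that left out an array, and the second probe in none of them. Also lower, and chosen after their values were seen, were Ctse, the aspartic protease cathepsin E (10.54 and 10.56 against 11.52 and 11.53, adjusted p = 0.0315), and Ifitm1, an interferon-induced membrane protein (7.18 and 7.03 against 8.00 and 8.14, adjusted p = 0.0437). A second Ifitm1 probe read 13.53 and 13.69 against 13.66 and 13.80 (adjusted p = 0.923), so the probes of this gene disagreed. Neither Ctse nor Ifitm1 kept its call when an array was left out, with adjusted p from 0.0958 to 0.153 and from 0.0891 to 0.205. None of 22 measured interferon response genes was called, with a median of 0.02. Stat2 read 5.85 and 5.89 against 6.19 and 6.14, and Isg15 7.82 and 7.53 against 7.44 and 7.87.

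The other called genes were spread over many functions, and those named here were chosen after their values were seen. Ptx3, a secreted pattern recognition protein, read 9.99 and 9.93 against 8.93 and 9.01 (0.99 ± 0.13, limma adjusted p = 0.0322), and its second probe differed by 0.96 (adjusted p = 0.0659). St3gal6, a sialyltransferase, read 8.96 and 9.14 against 7.77 and 7.75 (1.29 ± 0.14, adjusted p = 0.0126). Ccn5, a matricellular protein, read 11.49 and 11.46 against 10.22 and 10.58 (1.07 ± 0.16, adjusted p = 0.0466). The groups lay apart in each, with 1 Ing1-/- array of Ccn5 nearer to the others. Lama5, a laminin chain, read 7.05 and 6.51 against 5.16 and 5.56, at least 1.85-fold higher (adjusted p = 0.0499, and 0.051 over 8 arrays). Unc5c, a netrin receptor, read 6.89 and 6.88 against 5.95 and 5.61 (1.11 ± 0.16, adjusted p = 0.0386), with a second probe that differed by 0.36 (adjusted p = 0.667). Xlr4a, of a multicopy X-linked family whose copies a probe may not tell apart, read 6.80 and 7.14 against 5.59 and 5.70, at least 2.11-fold higher (adjusted p = 0.0216), below WT (7.60 and 8.26) and DKO (8.13 and 8.24). Ptx3 kept its call in no fit that left out an array, St3gal6 in those without an Ing1-/- array, Ccn5, Lama5 and Xlr4a only without Ing1-/- replicate 2, and Unc5c only without Ing1-/- replicate 1. Also higher were Cdsn, Cbr2, Kazald1, Ampd3, Plac9a, Flrt1, Capn6, Limch1, Mboat1, Bves, Chst7 and Cds1, and Tmem204 and Olfr352 were lower. Of these, Cdsn (at least 1.24-fold), Cbr2 (at least 2.05-fold) and Kazald1 (at least 1.31-fold) were below background on both Ing1-/- arrays and Olfr352 (at least 1.08-fold) on both arrays labelled Gadd45a-/-. The other differences ran from 0.91 to 1.09, and that of Tmem204 was -0.93. Cdsn kept its call in 3 and Cbr2 in 2 of the fits that left out an array, and the other genes of this group in none.

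Some of the most changed probes stood beside other probes of the same gene that did not pass. One of 3 Mak16 probes, for a ribosome biogenesis factor, read 11.21 and 11.24 in the arrays labelled Gadd45a-/- against 5.13 and 6.06 in those labelled Ing1-/- (5.62 ± 0.28, limma adjusted p = 0.000368), and only 1 of the latter was above background. The others differed by 0.08 and -0.06 (adjusted p = 0.976 for both). Erdr1, of the region shared by the X and Y chromosomes, had a probe at 4.88 and 4.66 against 11.39 and 11.24, at least 42.8-fold lower (adjusted p = 5.13e-06). WT (4.72 and 4.62) and DKO (4.78 and 4.70) were below background too, so the Ing1-/- arrays alone were bright. Its second probe read 7.89 and 7.78 against 9.15 and 8.55 (adjusted p = 0.111). Entpd4, a nucleotide-hydrolysing enzyme of the Golgi, had a probe at 4.56 and 4.50 against 7.32 and 7.21, at least 2.59-fold lower (adjusted p = 0.000368), and another at 10.47 and 10.05 against 10.68 and 10.64 (adjusted p = 0.563). Slc25a37, mitoferrin 1 of the inner mitochondrial membrane, had a probe at 4.65 and 4.64 against 6.73 and 6.82, at least 1.85-fold lower (adjusted p = 0.00112), and another at 8.38 and 8.32 against 8.52 and 8.25 (adjusted p = 0.99). On the called probes of both genes WT was dark like the arrays labelled Gadd45a-/- and DKO bright like the Ing1-/- arrays.

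Ide, the insulin-degrading protease, also had 1 of 3 probes called (5.99 and 5.99 against 7.25 and 7.13, limma adjusted p = 0.0147) and the others differed by 0.24 and 0.19. Ogt, the transferase that adds O-linked N-acetylglucosamine to proteins and was chosen after its values were seen, had 1 of 4 kept probes called (6.00 and 6.18 against 7.32 and 7.04, adjusted p = 0.0393). Among the fits that left out an array, Ide and Ogt kept their calls only without Ing1-/- replicate 2 (adjusted p = 0.0372 and 0.0453). Of the 18 called genes with over 1 kept probe, all kept probes were called in 2, Col2a1 and Gadd45a, and some were not in 16. Some called genes had further probes on the array that were not kept, among them Smoc1, Slco4a1, Gsdme and Rspo2. In the RefSeq gene table (GRCm38.p6) no gene lies between Mak16 and Fut10 on chromosome 8, nor between Erdr1 and Mid1 on the X chromosome. Between Slc25a37 and Entpd4 on chromosome 14 lie 3 genes, 1 of them protein-coding. Mid1, a ubiquitin ligase of microtubules, read 7.25 and 7.16 against 5.54 and 5.89 (1.50 ± 0.16, adjusted p = 0.0126), opposite in direction to Erdr1, and lost its call without either array labelled Gadd45a-/- (adjusted p = 0.0889 and 0.0692). Rtl3, a retrotransposon-derived gene also on the X chromosome, read 7.75 and 7.53 against 6.36 and 5.90 (1.51 ± 0.19, adjusted p = 0.0222), with the call lost in the same fits (0.12 and 0.0862).

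Genes around each targeted locus were counted. Within 25 Mb of Gadd45a on chromosome 6, 6 of 255 kept probes were called (2.35%), or 4 of 253 without its own probes (1.58%). On the rest of that chromosome 1 of 376 was called (0.266%). Within 25 Mb of Ing1 on chromosome 8, 5 of 147 were called (3.4%), against 1 of 552 on the rest (0.181%). By gene, 5 of 169 were called near Gadd45a, itself included, and 3 of 98 near Ing1, where Fut10 alone had 3 called probes. Outside both windows the share was 0.45%, 55 of 12219. Near Gadd45a the called genes were Npy, Gsdme, Nt5c3 and Dysf, at -17.2, -16.8, -10.1 and 17.1 Mb from it. Nt5c3, a nucleotidase of pyrimidine breakdown, read 7.56 and 7.76 against 9.13 and 9.20 (-1.51 ± 0.14, limma adjusted p = 0.00626), and WT matched the Ing1-/- arrays (9.30 and 9.16) while DKO matched those labelled Gadd45a-/- (7.70 and 7.84). Its call was lost without Gadd45a-/- replicate 1 (adjusted p = 0.058). Gsdme, a pore-forming gasdermin, read 6.10 and 5.85 against 7.21 and 7.40 (adjusted p = 0.0174), with WT at 7.50 and 7.46 and DKO apart at 5.40 and 6.70. In the fit over 8 arrays its adjusted p was 0.222, and of the fits that left out an array only that without Ing1-/- replicate 1 kept its call. Dysf, a membrane repair protein of muscle, had 1 of 3 kept probes called, at 6.45 and 6.51 against 5.45 and 5.45, at least 1.50-fold higher (adjusted p = 0.026), and without any 1 array its adjusted p ran from 0.0812 to 0.146.

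Near Ing1 the called genes were Nek3, Mak16 and Fut10, at 10.6, 19.6 and 19.7 Mb from it. Fut10, of the fucosyltransferase family, had 3 of 4 probes called. The most changed read 7.48 and 7.16 against 5.03 and 4.76, at least 2.69-fold higher in the arrays labelled Gadd45a-/- (limma adjusted p = 0.00216). The second read 8.92 and 8.85 against 7.49 and 7.39 (adjusted p = 0.00619, or 0.058 without Gadd45a-/- replicate 1), and WT matched the first pair (8.75 and 8.95) and DKO the second (7.38 and 7.40). The third was dim at 6.00 and 6.01 against 5.16 and 5.09 (adjusted p = 0.047), and its adjusted p was 0.42 over 8 arrays and from 0.119 to 0.199 without any 1 array. Nek3, a mitotic kinase relative, read 7.52 and 7.22 against 8.57 and 8.57 (adjusted p = 0.0257, and from 0.0609 to 0.127 without any 1 array), and its other 2 probes, below background on both arrays labelled Gadd45a-/-, did not pass (adjusted p = 0.0762 and 0.131). The genes closest to the loci did not pass: the probes of Gng12 and Serbp1 beside Gadd45a differed by 0.15 or less in size, and the Cars2 probes beside Ing1 had adjusted p of 0.17 and 0.841. Whether the DNA around the loci has a part in these values was not tested.

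**Figure D3:**
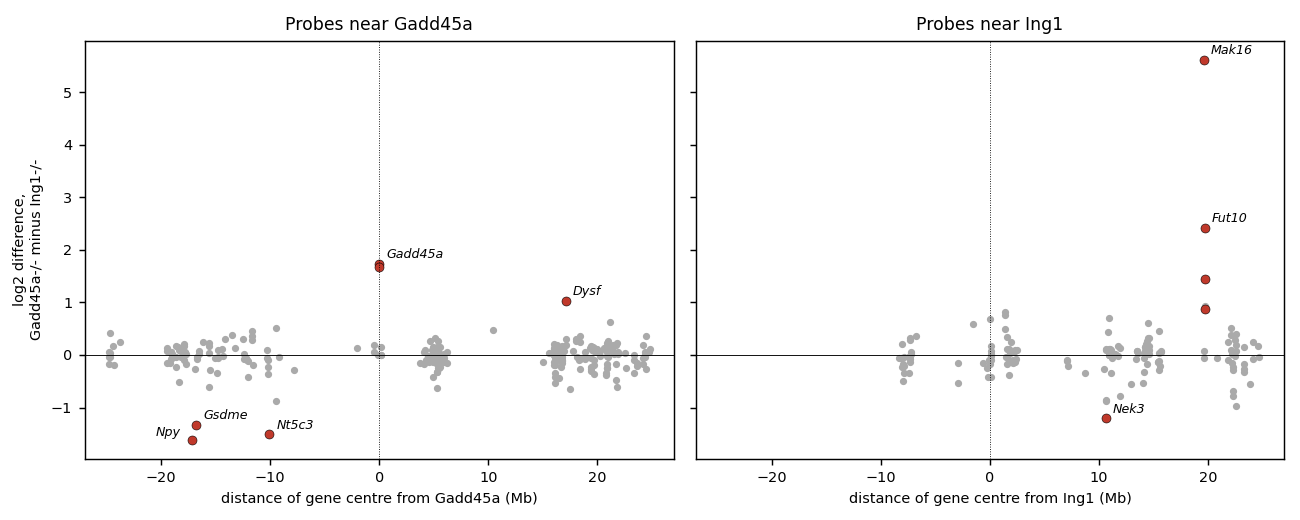
Log2 difference (arrays labelled Gadd45a-/- minus Ing1-/-) of kept probes within 25 Mb of Gadd45a (left) and of Ing1 (right), against the distance of their gene's centre in Mb, with called probes in red. On the left 3 called probes lie below 0 and 3 above, 2 of these Gadd45a itself; on the right Mak16 and 3 Fut10 probes lie above 0 and Nek3 below.

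The levels in WT and DKO, which did not enter the comparison, placed the called probes. Over the 75 called probes, the DKO mean was nearer to the Gadd45a-/- mean in 53 (70.7%) and the WT mean nearer to the Ing1-/- mean in 53 (70.7%). Over all kept probes these shares were 49.2% and 52.2%. Among the 53 probes higher in the arrays labelled Gadd45a-/-, DKO was nearer to that genotype in 42 (79.2%) and WT nearer to Ing1-/- in 41 (77.4%). For the 22 lower probes DKO was nearer to each genotype in 11 of them, and WT nearer to Ing1-/- in 12 (54.5%). Of the higher probes 19 were below background on both Ing1-/- arrays, and of the lower probes 7 on both arrays labelled Gadd45a-/-. Ppbp was below background in WT (5.33 and 5.46) and DKO (5.47 and 5.46) as well. Nearness for such probes rests partly on background signal, and Col2a1, Fut10, Gadd45a and Cd40 count with several probes each. Cck, Gsta4 and Il11 had DKO at or above the Gadd45a-/- level, and Il11 read 9.13 and 9.39 in DKO. Smoc1 had WT below both knockouts, at 6.73 and 6.50, and DKO at the Gadd45a-/- level, at 9.12 and 9.04. Gap43 ran opposite, with WT at 8.08 and 8.14 near the Gadd45a-/- arrays and DKO at 6.77 and 6.70 near the Ing1-/- arrays.

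**Figure D4:**
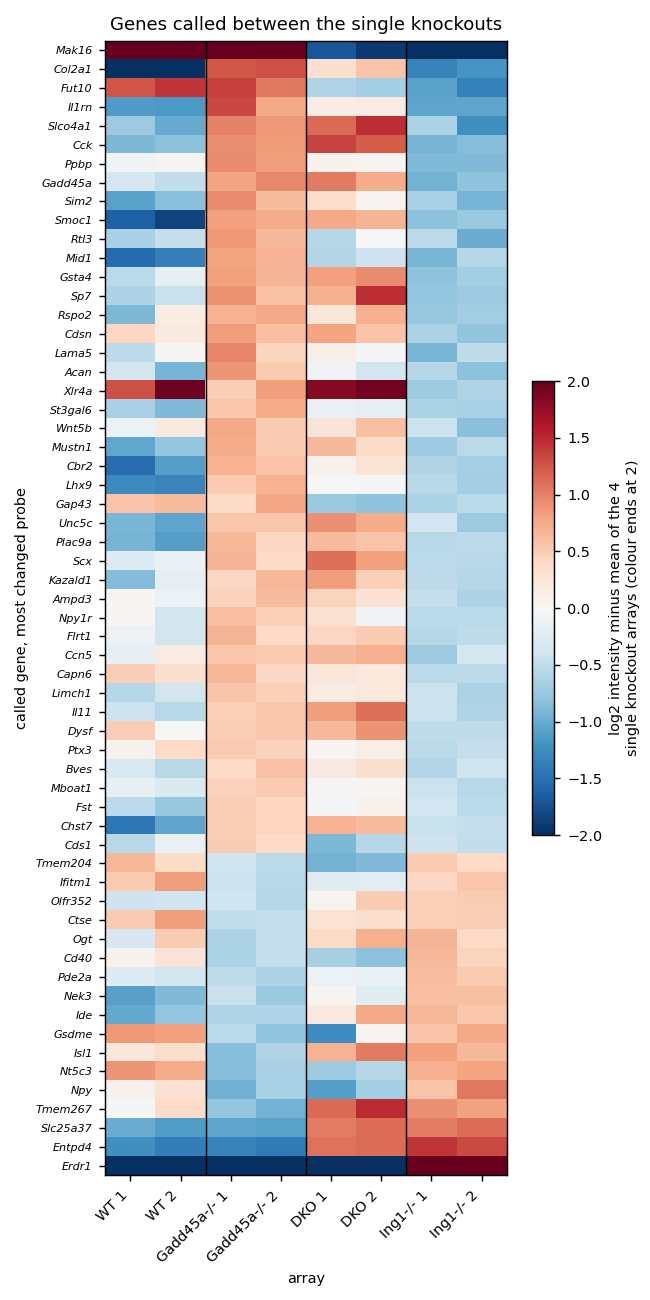
Log2 intensity on each of the 8 arrays minus the mean of the 4 single knockout arrays, for the 60 called genes at their most changed probe, with colours ending at 2 log2 units. In the upper block of 43 genes the DKO columns mostly share the colour of the columns labelled Gadd45a-/-, and in the lower block of 17 genes they divide.

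Markers of other cell types that such cultures can hold were read beside these results. Of 10 measured macrophage and blood genes 9 were higher in the arrays labelled Gadd45a-/-, and none was called, with a median of 0.33. Cd14, with the largest difference (0.75), was kept only through the arrays labelled Gadd45a-/-. Mpeg1, the lower gene, was kept only through the Ing1-/- arrays. The filter thus bears on these signs, and they cannot show enrichment. Lyz2, a lysozyme of macrophages and granulocytes, read 8.58 and 8.60 against 7.93 and 7.97 (limma adjusted p = 0.121, and 0.0424 over 8 arrays). Its second kept probe read 7.31 and 7.74 against 6.91 and 7.29 (limma adjusted p = 0.613, and 0.828 over 8 arrays). The summed linear signal of the list was 3774 and 3643 against 2724 and 3017, with 1965 and 2177 in WT and 1892 and 1810 in DKO. The defining markers Ptprc, Adgre1 and Itgam were not above background on any of the 4 arrays, while 1 of 2 probes of Csf1r, the receptor of a macrophage growth factor, was above it on some of them and reached 6.22. Of 5 epithelial genes 4 were higher and none was called. One of the higher genes, Krt7, was below background on both Ing1-/- arrays (5.45 and 5.61) and kept only through the others. The list's median was 0.44, or 0.17 with Krt7 at its bound, and its signs cannot show enrichment. Pkp1, a desmosome protein, read 7.25 and 7.05 against 6.30 and 6.10 (limma adjusted p = 0.058, and 0.0414 over 8 arrays), and the sums were 502.0 and 476.2 against 368.6 and 357.7, with Epcam and Krt5 below background and 1 of 2 probes of Cdh1, E-cadherin, above it on some arrays at up to 5.98. Of 5 endothelial genes 2 were higher and 3 lower with none called, the sums were 3970 and 3363 against 4753 and 4603, and Pecam1 and Cdh5 were below background. Eng, endoglin, read 8.02 and 7.76 against 8.58 and 8.89 (limma adjusted p = 0.111). The endothelial sum rests largely on Flt1 (11.53 and 11.24 against 11.86 and 11.70). Likewise the macrophage sum rests largely on Lyz1 (10.73 and 10.75 against 10.19 and 10.37), and such sums say little of dimmer members. Summed fibroblast signal was 106600 and 100800 against 111400 and 110000, and none of 15 measured fibroblast genes was called. The part of these cells in the called genes was not tested.

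Lists tied to the functions of the targeted genes follow. At 0.566% of all genes called, lists of this size can hold no call without differing from the rest. Among 25 measured p53 targets and cell cycle inhibitors Gadd45a was called and no other, with a median of -0.13. Cdkn1a, the p53-induced inhibitor p21, read 12.53 and 12.54 against 12.65 and 12.53, and Mdm2, which degrades p53, 12.24 and 12.10 against 12.40 and 12.08. None of 31 cell cycle genes was called, with a median of 0.09, and the mitotic kinase gene Cdk1 read 11.41 and 11.53 against 11.31 and 11.38. None of 22 genes of the ING family and its histone complexes was called either. Ing2, the closest relative of Ing1, read 6.01 and 5.95 against 6.39 and 6.52 (adjusted p = 0.291), and Sin3a, the scaffold of its deacetylase complex, 9.92 and 9.59 against 10.11 and 10.08 (adjusted p = 0.613). Of 22 genes of DNA demethylation and excision repair none passed, with a median of 0.04, and Tdg, the glycosylase that removes oxidized methylcytosine, read 7.79 and 8.01 against 7.77 and 7.68.

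No called gene was found in the remaining lists, which describe these arrays and not equality of the knockouts. The 16 measured cholesterol synthesis genes had a median of -0.20, and 15 were lower in the arrays labelled Gadd45a-/-. Lss, lanosterol synthase, read 10.17 and 9.92 against 10.28 and 10.45 (adjusted p = 0.621). Imprinted genes (14 measured) had a median of 0.17, led by Dlk1, an inhibitor of fat cell formation, at 13.21 and 12.89 against 12.58 and 12.30 (adjusted p = 0.275). Igfbp4, which binds insulin-like growth factors, read 9.34 and 9.25 against 8.75 and 8.68 (adjusted p = 0.17), within 12 genes of that axis with a median of 0.10. The complement genes (8 measured) had a median of 0.27, and Cd59a, a membrane inhibitor of complement, was nearest to the threshold at 10.06 and 9.85 against 10.82 and 10.68 (adjusted p = 0.0887). Medians lay at -0.03 for 33 integrated stress response genes, -0.03 for 29 contractile and TGF-beta genes, -0.02 for 22 glycolysis and hypoxia genes, -0.01 for 7 adipogenic genes, -0.06 for 9 pericyte and smooth muscle genes and 0.07 for 3 skeletal muscle genes.

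**Figure D5:**
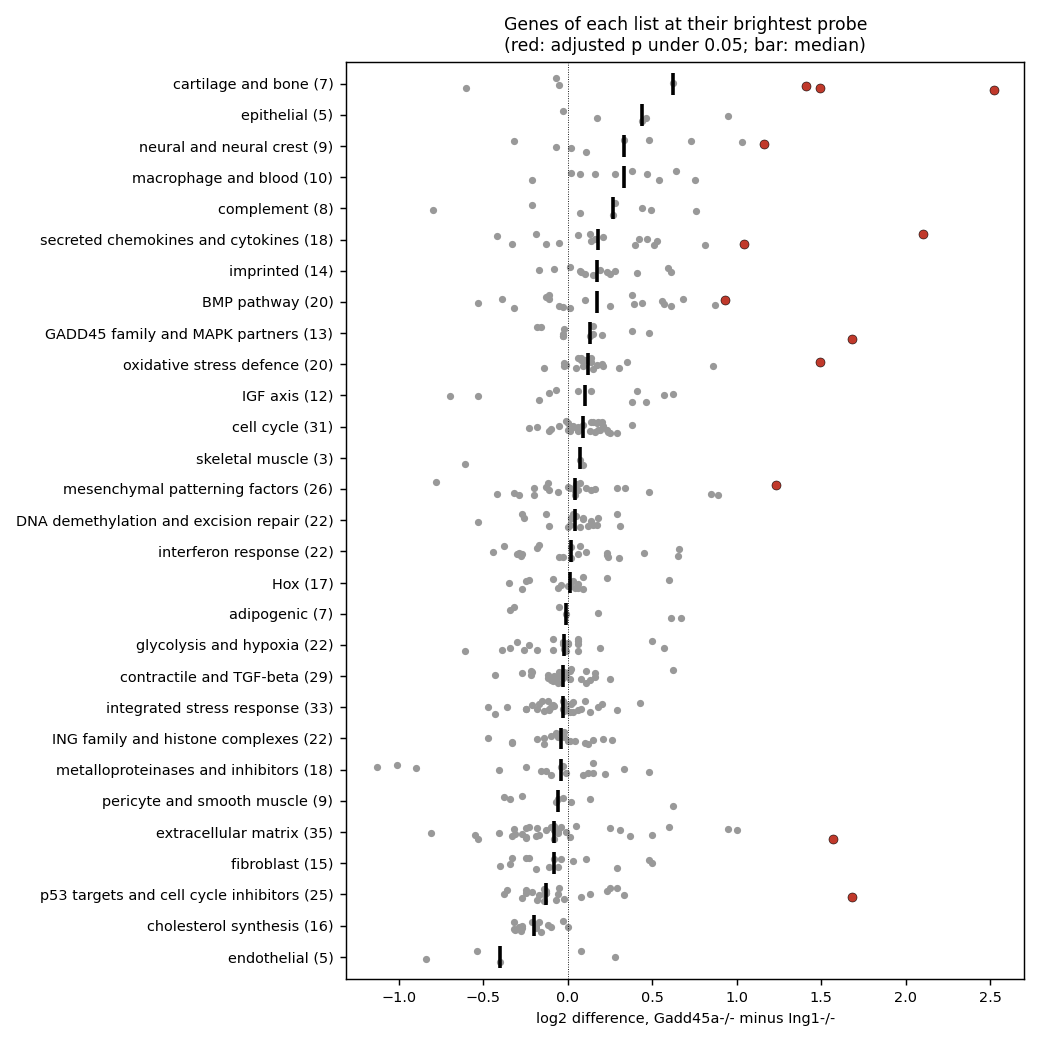
Log2 difference (arrays labelled Gadd45a-/- minus Ing1-/-) of every measured gene of each list at its brightest probe, 1 point a gene, with the number measured in brackets, called genes in red and the list's median as a bar. The cartilage and bone list has the highest median (0.62, or 0.36 with bounds) and 3 called genes. Its 3 genes at bounds were kept only through the arrays labelled Gadd45a-/-. The endothelial list has the lowest median (-0.40) and no called gene.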

How the data were processed

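RNA of 8 fibroblast samples was labelled as biotinylated cRNA and read on 1-colour Illumina arrays, per the labels' protocols. The deposited table of the authors holds average bead intensity on a linear scale, not normalized, and a detection p-value for each probe, per the file headers. The submitters' processing notes name GenomeStudio 2011.1 without its role. A second deposited table of the authors, whose method is not stated, holds linear intensity with 34.5% of values below 0 and column medians from 8.856 to 8.884. Its values correlated with the raw linear intensities at Pearson's r from 0.9972 to 0.9999 and reached 44528, so they were taken as linear, and their centring is unknown.

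From the raw table log2 values were computed with limma 3.58.1 in R 4.3.3 (neqc, negative controls inferred from the detection p, offset 16, quantile normalization over all 8 arrays). The offset makes fold changes of dim probes too small. A linear model was fitted to the 4 single knockout arrays with lmFit and eBayes. It had 2 residual and 5.35 prior degrees of freedom. Benjamini-Hochberg adjustment ran over the kept probes, and the threshold was 0.05. A probe below background on both arrays of a genotype is given as a bound against, for each array, the higher of its own signal and the lowest signal above background. Of all probes 34885 had 1 gene symbol, 18 several and 10378 none, and 34807 named probes matched RefSeq, whose GRCm38.p6 table gave gene order, distances and promoters.

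The members, the gene lists and the tests were chosen with earlier results of these data known. The naming rule took Gadd45a and Ing1, the 12 largest called differences in each direction, up to 3 called members of each list (or the 2 smallest p where none was called) and called probes within 25 Mb of the targeted genes. Names outside this rule were picked by hand with the values known, and only some of them are marked so where they appear. A gene stands in its list at its brightest kept probe, and no list was tested as a set. For a member kept through the arrays of a single genotype, the filter favours a higher reading there. Signs and medians of lists with such members cannot show enrichment. Replicate numbers were not treated as pairs. The deviations of same-numbered arrays correlated across probes at 0.201 between the knockouts and from -0.0943 to 0.281 over all pairs of genotypes. The fit was tested on simulated data. Alternatives covered background correction, normalization, filters, samples in the fit, moderation and thresholds.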

Additional observations from a re-analysis of the deposited data

How the results depend on the processing

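The 75 calls (53 higher and 22 lower in the arrays labelled Gadd45a-/-) moved in number with the processing. More were called with normexp without detection p-values (128, with 87 higher and 41 lower), no background correction (176, 109 and 67), an offset of 50 (137, 91 and 46), median scaling (151, with 121 higher), a trended and robust eBayes (191, 119 and 72) and a threshold of 0.1 (158, 113 and 45), and over all 8 arrays 81 were higher. Fewer were called without a detection filter (17, 12 and 5), with detection on all 4 arrays (43, 30 and 13), with a detection p under 0.05 (36, 26 and 10) and at a threshold of 0.01 (24, 17 and 7), and the authors' processed values gave 13 lower. The causes were not tested. With the replicate block 42 were called (30 higher and 12 lower), 41 of them shared, and the numbers only name arrays. Leaving out 1 array gave 20 to 51 calls, 14 to 37 higher and 6 to 16 lower. The share of calls that were higher stayed between 61.9% and 80.1%, and none of the 35 named called probes changed direction. Of these, 12 were called in every fit at 0.05 that used all 4 arrays and tested the probe. The filter for detection on all 4 arrays removed those of Mak16, Fut10, Ppbp, Tmem267, Slc25a37, Entpd4 and Erdr1, so that fit could not call them. Median scaling moved the median of all kept probes by 0.097. No slide is given in the headers, so a block for it was not run. The 26 called probes with a genotype below background are limited by signal over background and have only a bound there.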

Other observations

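Of the 9 called probes without a gene name, 5 were higher and 4 lower in the arrays labelled Gadd45a-/-. The most changed, ILMN_1219113, read 10.14 and 10.05 against 4.90 and 4.65 in the arrays labelled Ing1-/-, at least 18.4-fold higher (limma adjusted p = 1.15e-05). WT was bright at 10.21 and 9.98, and DKO was as dim as Ing1-/- at 4.78 and 5.23. ILMN_2432568 read 7.59 and 7.64 against 5.08 and 5.42, at least 3.30-fold higher (adjusted p = 0.00178), with WT below background (4.94 and 4.79) and DKO bright (7.46 and 7.51). ILMN_2481836 read 6.51 and 6.89 against 8.80 and 8.63 (-2.01 ± 0.17, adjusted p = 0.00397), and ILMN_1213448 read 8.09 and 8.13 against 9.90 and 9.77 (-1.73 ± 0.14, adjusted p = 0.0029), with WT at 9.95 and 9.67 and DKO at 8.27 and 8.23. All 4 of these kept their call whichever array was left out.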
